A study of Rattus norvegicus with 36 samples.

Results

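The 10 genes described here encode inflammasome components and executioners of lytic cell death. They are the sensors Nlrp3, Nlrc4 and Aim2, the adaptor Pycard, the caspases Casp1, Casp4 and Casp8, the pore protein Gsdmd, and the necroptosis kinase Ripk3 with its target Mlkl. They were picked by symbol from a table of 23487 genes, with earlier results of these data known. All 10 were in the table and all 10 passed the filter on low counts, which left 14498 genes for testing. RNA was sequenced from primary alveolar macrophages of male F344/HanZtmRj rats, kept in culture for 5 days in medium with 10% serum. Exposure lasted 4 days, and the cells received Printex90, a carbon black, or 1 of 3 titanium dioxides named G1-1, G3-1 and Bayertitan. Each particle was given at a non-overload and an overload loading and had control cultures of its own, which made 12 groups of 3 libraries and 36 libraries in all. The doses behind the loadings are not given in the sources used here, and the labels do not say whether replicates came from separate animals, so the p-values measure only the spread between these libraries.

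Alveolar macrophages take up inhaled particles, and particle damage to the lysosome is a classical trigger of the NLRP3 inflammasome. An inflammasome forms in steps. A first signal raises the transcription of sensor and cytokine genes, and a second signal makes the sensor bind the adaptor ASC (the product of Pycard), which recruits caspase-1. Caspase-1 matures interleukin-1beta and interleukin-18 and cuts gasdermin D, whose fragment forms pores in the plasma membrane. Necroptosis is another lytic route, in which RIPK3 phosphorylates MLKL, and caspase-8 holds it in check. Assembly and cleavage are protein events, and the libraries hold RNA levels only.

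Nlrp3, Nlrc4 and Pycard were the members that changed in the tests reported further on. RefSeq promoter sequences (rat build GRCr8) matched 6 of the 10 members by symbol, among them Nlrp3 and Pycard. The 250 bases before the annotated start of both are shown because both genes fell with Printex90 overload. They are written in the direction of the gene, with capitals for GAGGAA, the core bound by the myeloid factor PU.1. The Nlrp3 stretch is chr10:44827848-44828097 on the plus strand, and the Pycard stretch is chr1:192033420-192033669 on the minus strand.

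Nlrp3: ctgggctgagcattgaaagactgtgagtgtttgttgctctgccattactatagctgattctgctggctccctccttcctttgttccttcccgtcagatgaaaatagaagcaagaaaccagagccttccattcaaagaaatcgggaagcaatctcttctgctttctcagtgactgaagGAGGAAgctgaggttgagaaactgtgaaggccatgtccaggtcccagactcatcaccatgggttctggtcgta

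Pycard: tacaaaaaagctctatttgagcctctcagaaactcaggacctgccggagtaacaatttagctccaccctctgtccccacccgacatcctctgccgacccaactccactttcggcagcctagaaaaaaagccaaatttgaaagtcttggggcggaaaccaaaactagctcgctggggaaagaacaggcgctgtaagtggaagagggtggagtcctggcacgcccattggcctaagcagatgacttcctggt

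GAGGAA on either strand was in the 250 bases of Nlrp3 (73 to 68 bases before the start), Aim2 and Casp1, and not in those of Pycard, Ripk3 and Mlkl. Of the 33469 promoters in the table, 23.3% held it. The AP-1 motif TGANTCA was in 6.34% of them and, among the members, in Ripk3. Both strands were searched, no match of one motif in a member overlapped a match of the other, and a match says only that the letters are there.

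Column totals in estimated counts ran from 22274300 to 37131500. Levels are in CPM (counts scaled to a common library total), which is not adjusted for transcript length and so compares groups for 1 gene, not genes with each other. The macrophage markers Cd68 (508 to 835 CPM), Mrc1 (821 to 1260 CPM) and Lyz2 (9950.0 to 16300.0 CPM) were present in every library, whereas the macrophage receptor gene Marco reached at most 0.353 CPM and was at 0 in 5 libraries. The libraries also held transcripts of other cells. The collagen gene Col3a1 was under 5 CPM in 21 libraries and above it in 15, and controls 1 and 2 of Printex90 and control 1 and overload 1 of G1-1 were among the 15 above it. Fits without those 15 leave 1 library in 4 of the 12 groups (Printex90 control, G3-1 non-overload, G3-1 overload and Bayertitan non-overload), which is then assumed to vary like the other groups, with 9 residual degrees of freedom. The summed level of the 5 fibroblast markers in the table ran from 16.3 to 3122 CPM, and that of 8 epithelial markers from 682 to 1957 CPM, with the alveolar type II marker Sftpc at 0 in all 36 libraries. The summed level of 8 neutrophil markers was 8.35 to 16.9 CPM, with Mpo at 0 in 35 libraries. In such mixed samples fewer cells of a type and less RNA per cell cannot be told apart.

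Overload of 2 of the 4 particles lowered sensor or adaptor transcripts. With Printex90 overload Nlrp3 and Pycard fell, and with G1-1 overload Nlrc4 and Pycard fell, each to between 0.657 and 0.697 of its control level. No member passed the test as higher in any single-particle comparison, and with G3-1 and Bayertitan overload no member passed in either direction. G3-1 overload called only 0.117% of all tested genes. The caspase, gasdermin and necroptosis genes did not pass the test in any of these comparisons. Calls rest on edgeR's quasi-likelihood test over all 36 libraries with Benjamini-Hochberg adjustment over the 14498 genes and a threshold of 0.05.

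**Figure D1:**
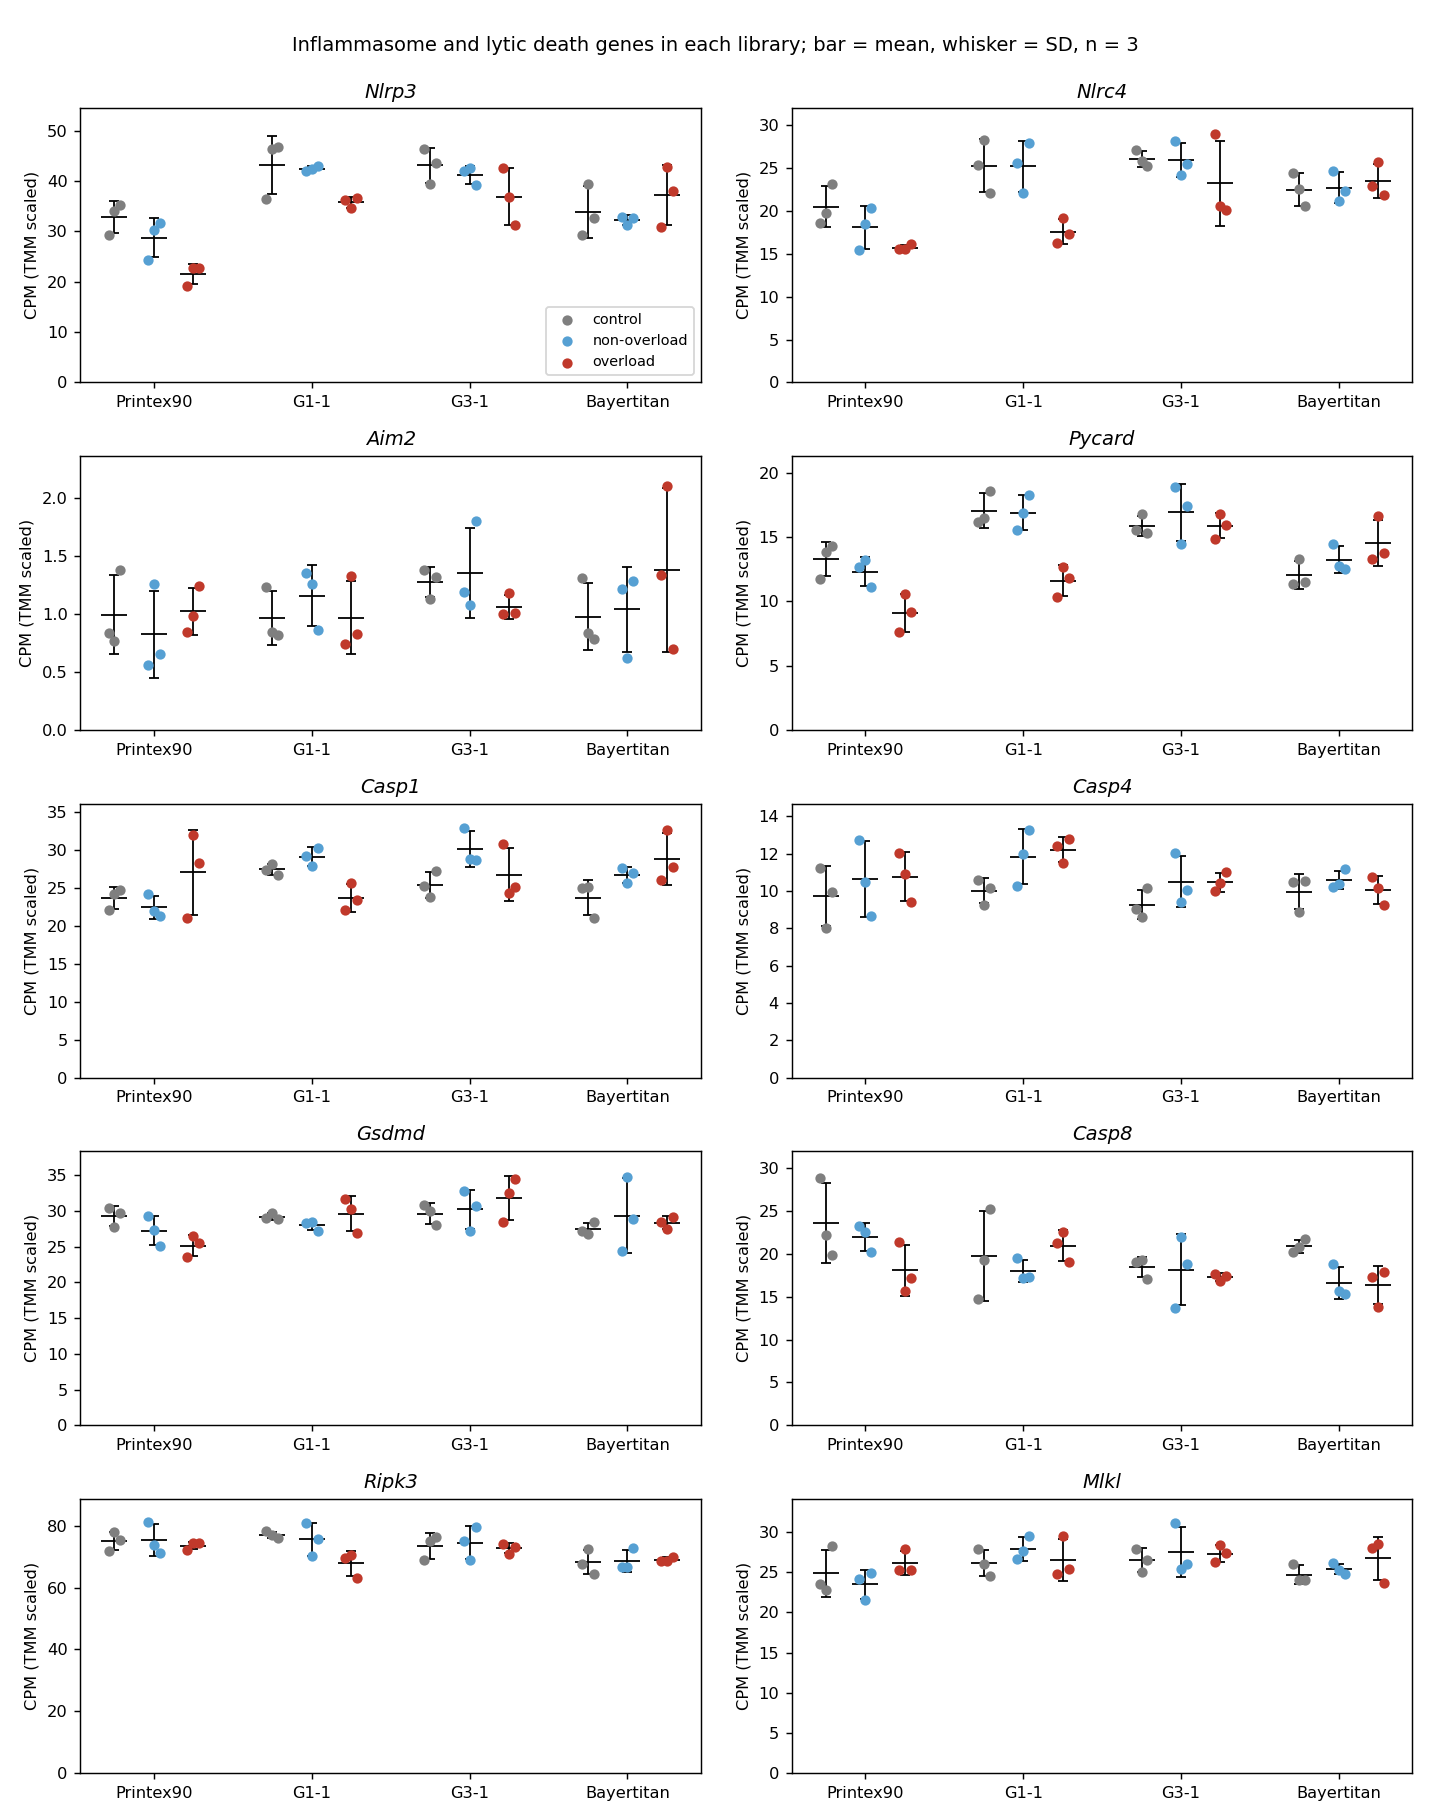
Levels of the 10 members in all 36 libraries, in CPM on TMM-scaled library sizes (vertical axis, from 0), by particle (horizontal axis) and loading (grey control, blue non-overload, red overload). Points are libraries, bars are means and whiskers are SD of 3 libraries. The red points of Nlrp3 and Pycard lie under the grey ones for Printex90, and those of Nlrc4 and Pycard lie under them for G1-1.

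Nlrp3 encodes the sensor that responds to lysosomal damage and potassium loss. Its level in the Printex90 controls was 29.2, 34.0 and 35.1 CPM, and in the Printex90 overload libraries 19.2, 22.7 and 22.7 CPM. All 3 overload libraries lay under all 3 controls, and the mean fell from 32.8 ± 3.15 to 21.6 ± 2.02 CPM (SD, n = 3). The fold change was 0.657, or -0.61 on the log2 scale (SE 0.125, edgeR adjusted p = 0.00383). The non-overload libraries of this particle stood between, at 24.3, 30.2 and 31.7 CPM, and overlapped the controls.

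With the titanium dioxides Nlrp3 did not pass the test. Its level went from 43.1 ± 5.78 to 35.8 ± 1.10 CPM with G1-1 overload (log2 fold change -0.27, SE 0.122, edgeR adjusted p = 0.252), and the groups overlapped since control 1 was at 36.4 CPM and 1 overload library at 36.7 CPM. With G3-1 overload the log2 fold change was -0.22 (95% interval -0.48 to 0.03) and with Bayertitan overload 0.14 (-0.12 to 0.39). Over the 12 groups the Printex90 overload group was lowest and the G1-1 control group highest, at 43.1 CPM, a ratio of 2. In that order only 1 of 11 neighbouring pairs of groups did not overlap, the step from Printex90 overload to Printex90 non-overload.

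Nlrc4 encodes the sensor that, in mice and humans, works with NAIP proteins to detect bacterial flagellin and secretion systems. The G1-1 controls were at 25.4, 28.3 and 22.1 CPM and the G1-1 overload libraries at 16.3, 19.2 and 17.3 CPM. The groups did not overlap, and the mean dropped from 25.3 ± 3.10 CPM with control to 17.6 ± 1.48 CPM (log2 scale -0.52, SE 0.124, edgeR adjusted p = 0.0113). The call was lost without control 2 (log2 fold change -0.43, adjusted p = 0.0875), without overload 1 (-0.47, adjusted p = 0.0723) and without overload 3 (-0.51, adjusted p = 0.0539).

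With Printex90 overload Nlrc4 was at 15.5, 15.6 and 16.1 CPM against 18.6, 19.8 and 23.2 CPM in the controls. These groups did not overlap either, but the log2 fold change of -0.38 (SE 0.125) missed the threshold by edgeR (adjusted p = 0.0551), and it passed by DESeq2 (adjusted p = 0.0351). Nlrc4 stood between 22.5 and 26.1 CPM on average in the control, non-overload and overload groups of G3-1 and Bayertitan, where the log2 overload effects were -0.17 and 0.06. One G3-1 overload library, at 28.9 CPM, stood above the other two at 20.7 and 20.1 CPM.

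Aim2, the sensor of cytosolic DNA, was near the lower limit of detection. It had 16 to 62 counts per library and 0.558 to 2.10 CPM. Its log2 overload effects ran from -0.27 with G3-1 to 0.50 with Bayertitan, all with standard errors between 0.364 and 0.369. None of these effects passed the test, and what size of change could be detected at such counts was not tested.

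Pycard encodes ASC, the adaptor that joins NLRP3 and AIM2 to caspase-1. The Printex90 controls were at 11.8, 13.8 and 14.3 CPM and the overload libraries at 7.61, 10.6 and 9.19 CPM, with no overlap. The mean went from 13.3 ± 1.34 CPM down to 9.12 ± 1.48 CPM (log2 scale -0.54, SE 0.120, edgeR adjusted p = 0.00643). The G1-1 controls were at 16.1, 16.4 and 18.6 CPM and the overload libraries at 10.3, 12.7 and 11.8 CPM. There too the groups were apart, and overload took the mean from 17.1 ± 1.33 CPM down to 11.6 ± 1.20 CPM (log2 scale -0.56, SE 0.119, edgeR adjusted p = 0.00485).

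Pycard did not pass the test with the other titanium dioxides. With G3-1 overload it was at 14.9, 16.8 and 15.9 CPM against 15.5, 16.8 and 15.3 CPM in the controls, a log2 difference of -0.00 (95% interval -0.24 to 0.24). With Bayertitan overload it was at 13.3, 16.6 and 13.7 CPM against 11.4, 13.3 and 11.5 CPM, a log2 difference of 0.27 (edgeR adjusted p = 0.132). Of all 10 members, it was the 1 whose overload effect differed between the 4 particles (F test, edgeR adjusted p = 0.00853). That test called 1.72% of all tested genes. Without the 15 libraries with Col3a1 above 5 CPM, where Printex90 control and G3-1 overload hold 1 library each, it did not pass (adjusted p = 0.58).

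In numbers, 2 of 10 members were lower after Printex90 overload, where 7.99% of the 14498 genes were called and 2.84% were called lower. For G1-1 overload 2 of 10 were lower, against 5.01% of genes called and 2.71% called lower. G3-1 overload called 0.117% of genes and 0 members, and 0 members had an unadjusted p under 0.05, as 12.2% of genes did. Bayertitan overload called 9.84% of genes and 0 members, but 3 members had an unadjusted p under 0.05, as 28.3% of genes did. The median log2 fold change of the members was -0.13 with Printex90, -0.09 with G1-1, -0.01 with G3-1 and 0.09 with Bayertitan, where the medians of all tested genes were -0.01, -0.01, 0.00 and 0.01.

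**Figure D2:**
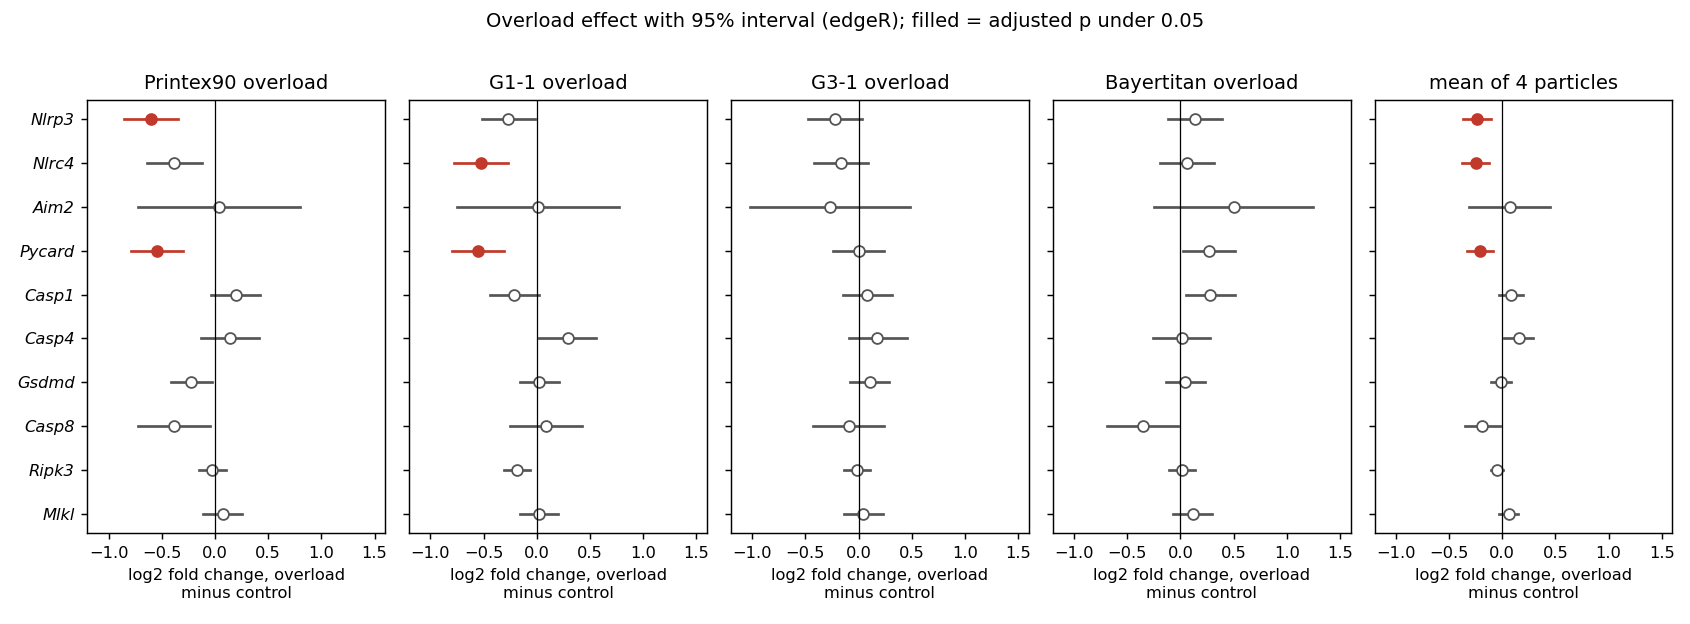
Log2 fold change of overload against control (horizontal axis) for the 10 members (vertical axis), for each particle and as the mean of 4 particles. Points are edgeR estimates, bars are 95% intervals, and filled points passed at an adjusted p under 0.05. Nlrp3 (-0.61) and Pycard (-0.54) passed for Printex90, Nlrc4 (-0.52) and Pycard (-0.56) for G1-1, and Nlrp3, Nlrc4 and Pycard for the mean.

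Casp1 encodes the inflammasome protease. It was at 22, 24.2 and 24.6 CPM in the Printex90 controls and at 21.0, 31.9 and 28.2 CPM after overload. The overload libraries fell on both sides of the controls, and the log2 difference was 0.19 (edgeR adjusted p = 0.283). Overload library 1 was the lowest, and without it the difference passed (0.36, adjusted p = 0.0186). With G1-1 overload Casp1 lay under all controls (23.6 ± 1.79 against 27.4 ± 0.748 CPM) and with Bayertitan overload above all controls (28.8 ± 3.47 against 23.7 ± 2.30 CPM). Neither difference passed (edgeR adjusted p = 0.347 and 0.0942), nor did the difference between the particles (adjusted p = 0.212).

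Casp4 encodes the caspase whose human and mouse counterparts bind intracellular lipopolysaccharide and cut gasdermin D without caspase-1. Its group means ran from 9.27 ± 0.783 CPM in the G3-1 controls to 12.2 ± 0.670 CPM with G1-1 overload. In the latter comparison the overload libraries, at 12.4, 11.5 and 12.8 CPM, lay above the controls at 10.6, 9.26 and 10.2 CPM (log2 difference 0.29, edgeR adjusted p = 0.25). Its mean overload and non-overload effects over the 4 particles were alike in size, at 0.16 and 0.16, and neither passed (edgeR adjusted p = 0.0838 and 0.154).

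Gsdmd, the substrate whose fragment forms the pore, was between 23.5 and 34.8 CPM in every library. With Printex90 overload it was at 23.5, 26.4 and 25.5 CPM against 30.5, 27.8 and 29.7 CPM in the controls. The groups did not overlap, and the log2 difference of -0.22 (95% interval -0.41 to -0.03) did not pass over all genes (edgeR adjusted p = 0.125). Its mean overload effect was -0.01 with a 95% interval from -0.11 to 0.08.

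Casp8, which starts death-receptor apoptosis and restrains necroptosis, varied widely among the G1-1 controls, at 14.8, 19.3 and 25.2 CPM. Bayertitan overload libraries, at 17.3, 13.8 and 17.9 CPM, lay under their controls at 20.2, 20.8 and 21.7 CPM, with a log2 difference of -0.36 (edgeR adjusted p = 0.147). With Printex90 overload the difference was -0.39 (adjusted p = 0.135), and without overload library 1 it passed (-0.52, adjusted p = 0.0491).

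Ripk3 was the steadiest member, with 63.2 to 81.3 CPM over all 36 libraries and a ratio of 1.14 between its highest and lowest group. The G1-1 overload libraries, at 69.7, 70.5 and 63.2 CPM, lay under the controls at 78.2, 77.0 and 76.0 CPM (log2 difference -0.18, SE 0.0598, edgeR adjusted p = 0.0743). Its other single-particle overload effects lay between -0.03 and 0.02. Mlkl, the pore protein of necroptosis, lay between 21.5 and 31.1 CPM, and its overload effects between 0.02 and 0.11. The 95% interval of its mean overload effect ran from -0.03 to 0.15 on the log2 scale.

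Groups that did not overlap were counted as well. With Printex90 overload 4 members lay wholly under the controls (Nlrp3, Nlrc4, Pycard and Gsdmd) and 0 wholly above, where 12.6% of all tested genes lay under and 12.8% above. For G1-1 overload 4 lay under (Nlrc4, Pycard, Casp1 and Ripk3) and 1 above (Casp4), against 13.2% and 11% of genes. G3-1 gave 0 in either direction, where 14.7% of genes did not overlap, and Bayertitan gave 1 under and 1 above, where 31% did not.

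The non-overload loading was compared with the same controls that served for overload. In the 40 tests of 10 members by 4 particles 0 passed, and the share of all genes called was 0% for Printex90, G3-1 and Bayertitan and 0.0621% for G1-1. An unadjusted p under 0.05 was found for 1 member with G3-1 (Casp1, log2 difference 0.25) and 1 with Bayertitan (Casp8, -0.34), where 5.39% and 16.2% of genes had one. Printex90 and G1-1 gave 0 members, where 4.33% and 6.38% of genes had one, and DESeq2 called 0 members with any particle. Averaged over the particles, 2.75% of genes and 0 members were called. The mean non-overload effects of Nlrp3, Nlrc4 and Pycard were -0.09 (95% interval -0.21 to 0.04), -0.04 (-0.17 to 0.08) and 0.03 (-0.10 to 0.15) on the log2 scale.

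Overload and non-overload were also set against each other, libraries that both comparisons above had used. Nlrc4 and Pycard were lower with overload than with non-overload of G1-1, where 1.95% of genes were called and 1.36% called lower. Nlrc4 was at 25.6, 22.1 and 28.0 CPM in the non-overload libraries, all above the overload libraries (log2 difference -0.52, edgeR adjusted p = 0.0249). Pycard was at 15.5, 16.9 and 18.3 CPM there, again with no overlap (-0.54, adjusted p = 0.0159). Each of these 2 calls was lost without non-overload library 3, overload library 1 or overload library 3 of G1-1. For Printex90, where 1.59% of genes were called, 0 members passed by edgeR and 3 had an unadjusted p under 0.05 (20.6% of genes), and DESeq2 called Nlrp3 and Pycard lower. G3-1 and Bayertitan called 0% of genes and 0 members.

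Averaged over the 4 particles, overload lowered Nlrp3 (log2 effect -0.24, SE 0.0613, edgeR adjusted p = 0.0056), Nlrc4 (-0.25, SE 0.0618, adjusted p = 0.00436) and Pycard (-0.21, SE 0.0595, adjusted p = 0.0117). These are 3 of 10 members, where 24% of all genes were called and 12.1% were called lower. The median effect of the 10 was -0.03, and that of all tested genes was 0.00. For Nlrp3, Nlrc4 and Pycard in turn, the effects were -0.61, -0.38 and -0.54 with Printex90 and 0.14, 0.06 and 0.27 with Bayertitan. The test of a difference between particles called Pycard and neither Nlrp3 (adjusted p = 0.0865) nor Nlrc4 (adjusted p = 0.171). Without the 15 libraries with Col3a1 above 5 CPM, 0 of the 3 passed, and their mean effects were -0.21, -0.21 and -0.24. With the mean of the epithelial list as covariate Nlrp3 missed the threshold (-0.23, adjusted p = 0.0829).

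Particles were then compared with each other, in contrasts added after the data were seen. The overload effect on Pycard with G1-1 was lower than the mean effect of the other titanium dioxides by a log2 difference of -0.69 (SE 0.145, edgeR adjusted p = 0.00882), in a contrast that called 2.97% of genes. That call was lost with the epithelial covariate (-0.53, adjusted p = 0.0849) and without the libraries with Col3a1 above 5 CPM (-0.59, adjusted p = 0.441). Nlrc4 gave -0.47 (adjusted p = 0.0898) and Nlrp3 -0.23 (adjusted p = 0.437) in it. The carbon black against the mean of the 3 titanium dioxides called 0.221% of genes and 0 members, with differences of -0.49 for Nlrp3 (95% interval -0.78 to -0.19, adjusted p = 0.256) and -0.45 for Pycard (-0.73 to -0.16, adjusted p = 0.299). Both contrasts together made 20 tests on members, adjusted over all genes within each contrast. Crystal form and size of the titanium dioxides are not given in the sources used here.

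The 4 control groups had no particle in them, and they were compared with each other. Nlrp3 averaged 32.8, 43.1, 43.1 and 33.8 CPM in the controls of Printex90, G1-1, G3-1 and Bayertitan (F test, edgeR adjusted p = 0.0448), but this passed in only 3 of 9 other settings and in 14 of 36 fits with 1 library left out. Pycard averaged 13.3, 17.1, 15.9 and 12.1 CPM (adjusted p = 0.0262). These 2 members stood in a test that called 5.59% of genes. Both calls were lost with the epithelial covariate (adjusted p = 0.0932 and 0.0784) and without the libraries with Col3a1 above 5 CPM, and neither passed when Printex90 control 1, G1-1 control 3 or Bayertitan control 1 or 3 was left out. Printex90 overload at 21.6 CPM of Nlrp3 was under every control library of the series, of which the lowest was at 29.2 CPM, whereas G1-1 overload at 35.8 CPM lay between the control means of the particles. Pycard with G1-1 overload, at 11.6 CPM, was close to the untreated Bayertitan controls at 12.1 CPM. Each overload effect above was therefore taken against the particle's own controls.

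Across the 12 group means the 3 genes that fell followed similar courses. Pearson's r of log2 CPM was 0.91 for Nlrp3 with Pycard, 0.911 for Nlrc4 with Pycard and 0.867 for Nlrp3 with Nlrc4. Over the 36 libraries r was 0.812, 0.759 and 0.779 for the same pairs. The non-member genes most alike over these groups were Alox5 (r = 0.947) and Irf8 (0.936) for Nlrp3, Csf1r (0.98) and Pou2f2 (0.98) for Nlrc4, and Pou2f2 (0.953) and Sectm1a (0.953) for Pycard. The mean level of Sectm1a was 0.601 CPM. Over the 36 libraries these r values were 0.839, 0.875, 0.92, 0.908, 0.783 and 0.764 in the same order. The 2 genes per member were picked for the highest r over the groups, which makes a high r certain in advance. Nlrp3, Nlrc4 and Pycard were set together because they fell in these same groups, which in part fixes their r in advance. Group means also share libraries and scaling factors, so the r values over the groups are only a description with n = 12. Casp1 and Casp8 ran opposite to each other (r = -0.801), and Ripk3 was within 0.379 of 0 with each of the other members.

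Macrophage and monocyte markers changed as well. With G1-1 overload, which called 2.71% of all genes lower and 2.3% higher, 4 of 9 tested macrophage markers fell and 0 rose. Those that fell were Lyz2 (log2 fold change -0.41), Siglec5 (-0.63), Adgre1, which encodes the F4/80 surface protein (-0.99), and Csf1r, the receptor for macrophage colony-stimulating factor (-0.49, edgeR adjusted p = 0.00864). With Printex90 overload, which called 5.15% of all genes higher and 2.84% lower, 3 of 9 rose (Cd68, Itgax and Fabp4) and 0 fell. Csf1r was at -0.26 with Printex90 (edgeR adjusted p = 0.149). With Bayertitan overload, where 0 members passed, Cd68, Itgax, Fabp4 and Mrc1 rose and 0 fell, and with G3-1 overload 0 passed. Bayertitan called 5.74% of all genes higher and 4.1% lower, and G3-1 called 0.117%. Of 5 tested monocyte markers Cx3cr1, the fractalkine receptor, fell with Printex90 (-2.44, edgeR adjusted p = 0.0011) and G1-1 (-2.67, adjusted p = 0.000104) and was at -0.30 with G3-1 and -0.12 with Bayertitan, on a level of 0.0416 to 2.12 CPM. F13a1 rose with Printex90, G1-1 and Bayertitan (1.12, 1.05 and 0.84), and Fn1 fell with Printex90 (-0.84, adjusted p = 0.00396). In the other lists the epithelial marker Scgb1a1 fell with Printex90 (-3.4). The endothelial marker Cdh5 rose with Printex90 and Bayertitan (0.79 and 0.65), and the fibroblast marker Dcn rose with Bayertitan (1.01). The mean log2 level of the macrophage list differed from control by 0.10 with Printex90 and -0.29 with G1-1. The mean of the epithelial list differed by -0.82 and 0.15, and that of the fibroblast list by -1.52 and 1.00. The part of these shifts in the member results was not tested beyond fits with the epithelial or fibroblast mean as a covariate, in which all 4 single-particle calls passed.

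**Figure D3:**
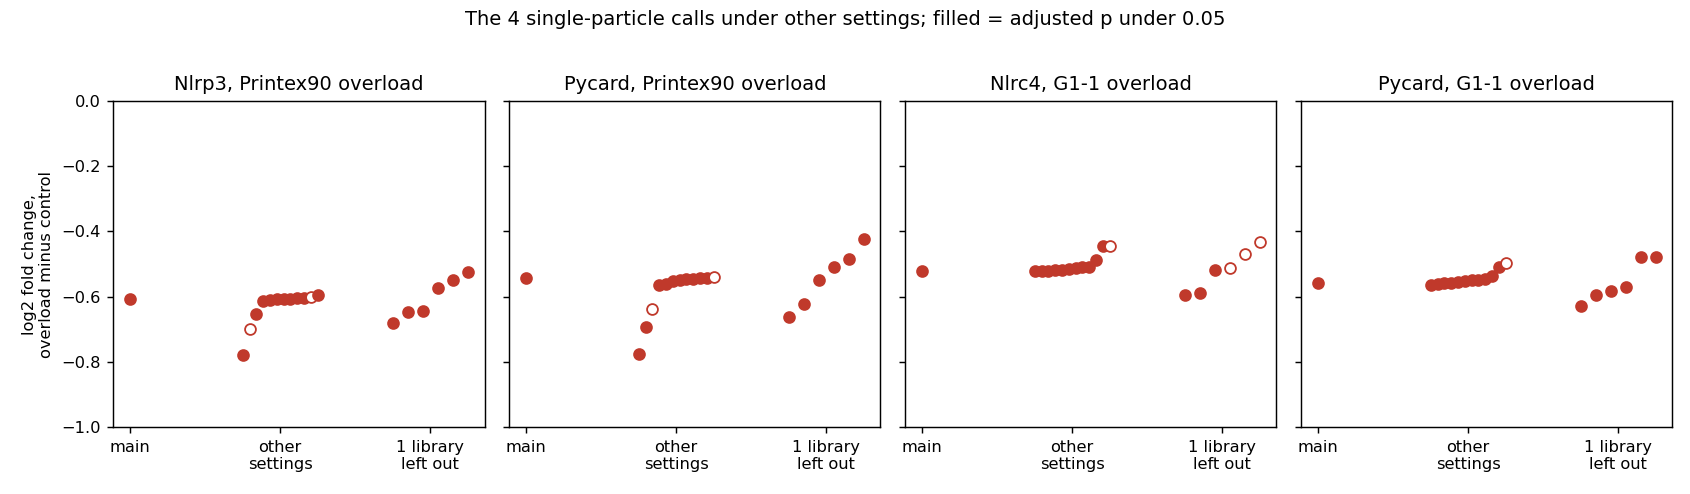
Log2 fold change of overload against control (vertical axis) for the 4 single-particle calls under the reported settings (main), other settings, and with 1 library of the compared groups left out (horizontal axis). Filled points passed at an adjusted p under 0.05 and open points did not. All points lie under 0, and the open ones include the fit without the libraries with Col3a1 above 5 CPM.

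Without the libraries with Col3a1 above 5 CPM none of the 4 single-particle calls passed. That fit of 21 libraries compares 3 Printex90 overload libraries with 1 control, and 2 G1-1 overload libraries with 2 controls. The log2 fold changes were -0.70 for Nlrp3 (edgeR adjusted p = 0.0801) and -0.64 for Pycard (adjusted p = 0.224) with Printex90, and -0.45 for Nlrc4 (adjusted p = 0.103) and -0.50 for Pycard (adjusted p = 0.202) with G1-1. With the epithelial mean as a covariate in the same 21 libraries, again with 1 Printex90 control and in a setting added after the data were seen, all 4 had adjusted p under the threshold (adjusted p = 0.0139, 0.0409, 0.0143 and 0.0445), as did Nlrc4 with Printex90 overload (-0.65, adjusted p = 0.0139). A fit of the 9 Printex90 libraries alone gave -0.60 for Nlrp3 (adjusted p = 0.0541) and -0.54 for Pycard (adjusted p = 0.0854).

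The wider pathway was read from a list of 55 genes in 4 roles, of which 48 were in the table and 43 were tested. The list was chosen with earlier results of these data known, so its shares beside those of all genes are only a description. Among the genes that passed in the mean overload effect, P2rx7, Pstpip1, Birc2 and Ctsb rose, and the cytokine Il1b and the redox protein Txnip fell. Averaged over the particles, overload raised 14 and lowered 5 of the 43, where 11.9% of all genes were called higher and 12.1% lower. By role, 5 of 14 sensor and licensing genes rose and 1 fell, and 1 of 6 products rose and 2 fell. Of 8 genes listed as restraints, 4 rose, Pstpip1 among them, and 0 fell. Of 15 death-receptor and necroptosis genes, 4 rose and 2 fell. Single overload comparisons raised 7 and lowered 5 with Printex90 and raised 3 and lowered 4 with G1-1. With G3-1 0 passed, and Bayertitan overload raised 10 and lowered 0. Of all genes 5.15% were called higher and 2.84% lower with Printex90, 2.3% and 2.71% with G1-1, and 5.74% and 4.1% with Bayertitan, and 0.117% were called with G3-1. The list's median log2 effect was 0.06 for the mean of the particles, against 0.00 for all tested genes. The share of all genes called in the alternative fits that follow is not given here. Counts from those fits therefore do not tell whether the list moved apart from all genes. With the mean of the epithelial list as covariate 7 of the 19 calls in the mean passed, and without the 15 libraries with Col3a1 above 5 CPM 10 did. In single overload comparisons 1 of the 29 calls passed without those libraries, that of Txnip with G1-1, and 19 calls were made without Bayertitan control 3.

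**Figure D4:**
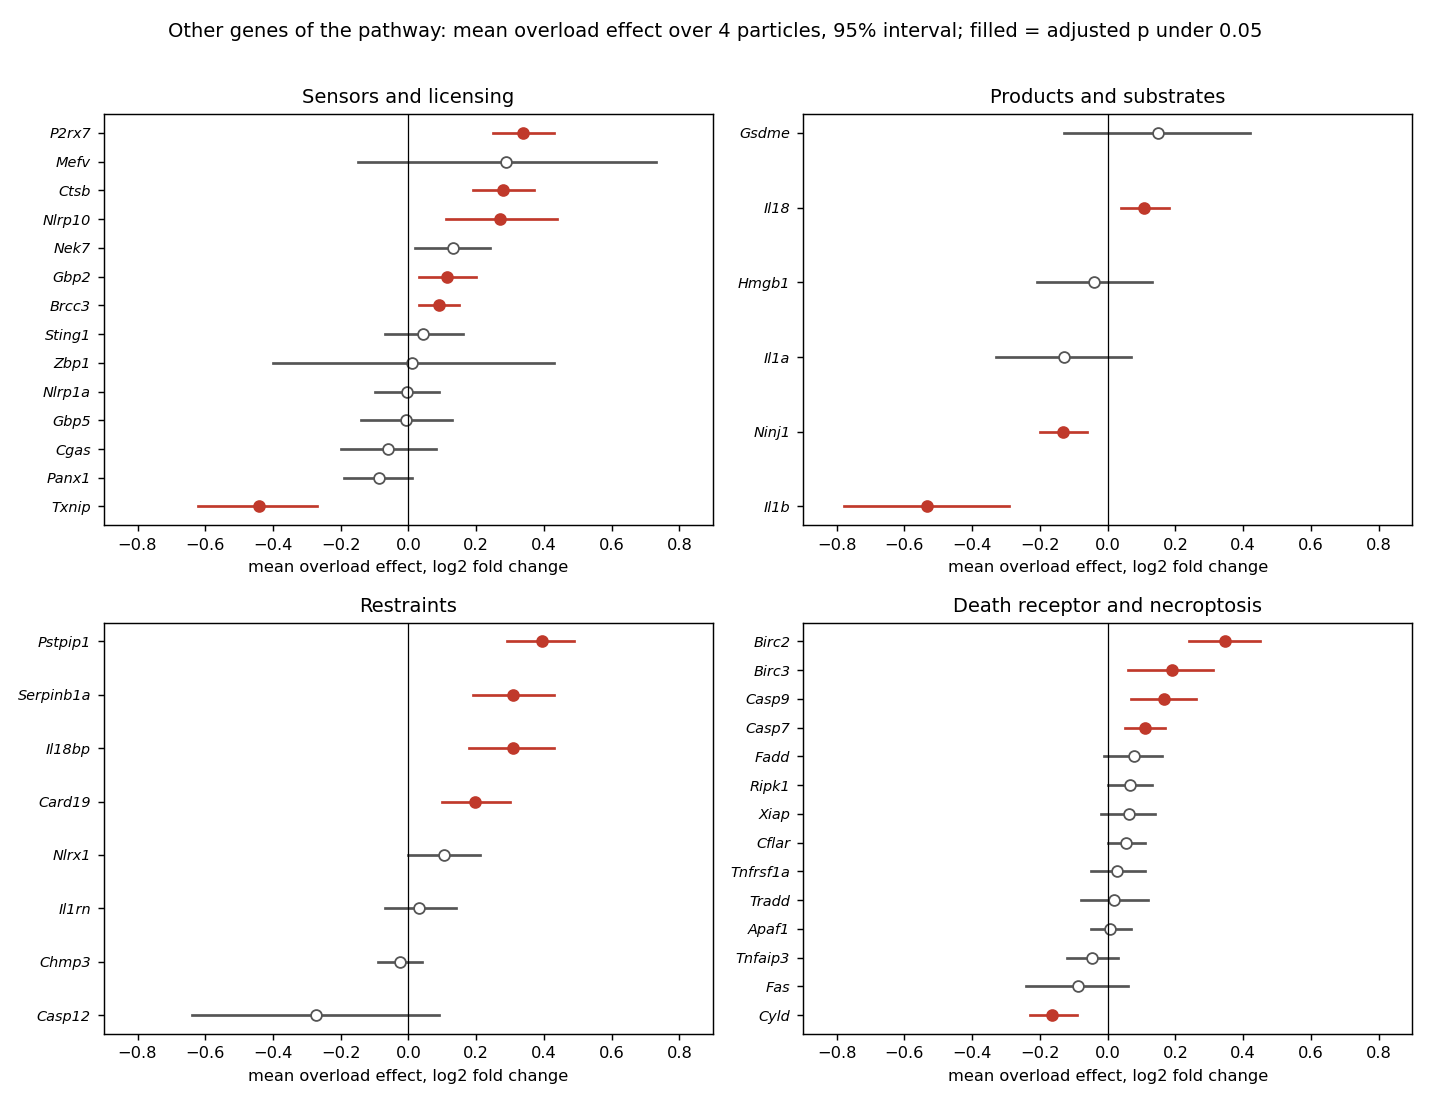
Mean overload effect over 4 particles on the log2 scale (horizontal axis) for the tested genes of the wider pathway (vertical axis), by role, with 1 gene not drawn. Points are edgeR estimates, bars are 95% intervals, and filled points passed at an adjusted p under 0.05. P2rx7, Pstpip1, Birc2 and Ctsb lie right of 0, and Il1b and Txnip lie farthest left.

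Il1b, the cytokine precursor that caspase-1 matures, fell in the same 2 comparisons as Pycard. It was at 28.5, 43.8 and 50.1 CPM in the Printex90 controls and at 12.3, 21.9 and 24.3 CPM after overload, with no overlap (log2 fold change -1.07, SE 0.246, edgeR adjusted p = 0.00867). The G1-1 controls were at 50.5, 53.3 and 46.0 CPM and the overload libraries at 30.4, 28.8 and 24.9 CPM (-0.83, SE 0.241, adjusted p = 0.0414), a call lost when any 1 of those 6 libraries was left out. With G3-1 and Bayertitan overload the differences were -0.33 and 0.10, and the test of a difference between particles did not call Il1b. Its relative Il1a, which signals without caspase-1 cleavage, was at 57.8, 41.7 and 43.5 CPM in the Printex90 controls and at 23.6, 24.2 and 26.6 CPM after overload. This fall (-0.94, edgeR adjusted p = 0.00373) was not shared by G1-1, where all 3 overload libraries lay above the controls (0.55, adjusted p = 0.101), and the effects differed between particles (adjusted p = 0.0152). With the epithelial covariate the Printex90 call of Il1a was lost (-0.56, adjusted p = 0.102).

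P2rx7, the ATP-gated channel upstream of NLRP3, rose with G1-1 overload from 30.3 ± 1.14 to 40.2 ± 1.75 CPM (log2 fold change 0.41, edgeR adjusted p = 0.00481) and with Bayertitan overload from 17.3 ± 2.47 to 24 ± 3.82 CPM (0.47, adjusted p = 0.0188). Averaged over the particles its effect was 0.34 with overload (adjusted p = 6.24e-06) and 0.23 with non-overload (adjusted p = 0.00701), in an average where 4 of the 43 pathway genes rose and 0 fell, and where 1.55% of all genes were called higher and 1.2% lower. With the epithelial covariate the Bayertitan call was lost (0.38, adjusted p = 0.419). The share of all genes called with this covariate is not given, here or for the calls below, and the cause of the losses was not tested. Ctsb, the lysosomal protease cathepsin B, rose by 0.28 on the mean overload scale (adjusted p = 0.000115). Txnip encodes a redox protein that binds NLRP3 and was tested for each particle. The G1-1 controls were at 228, 189 and 139 CPM and the overload libraries at 44.6, 73.4 and 59.5 CPM (-1.65, SE 0.175, adjusted p = 5.49e-07). The fall with G1-1 passed in every setting tried, while with Bayertitan overload the difference was 0.14. The effects on Txnip differed between particles (F test, edgeR adjusted p = 0.000133). Its mean overload effect was -0.44 (edgeR adjusted p = 0.000599), and its fall passed for no single particle but G1-1.

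Among the genes listed as restraints was Il18bp, the decoy receptor of interleukin-18. It rose from 213 ± 25.6 to 299 ± 58.4 CPM with Printex90 overload (edgeR adjusted p = 0.0149). With Bayertitan overload it rose from 211 ± 29.5 to 309 ± 44.6 CPM (edgeR adjusted p = 0.0217). Serpinb1a, a serpin that inhibits inflammatory proteases, rose in the same comparisons, by 0.49 and 0.49 on the log2 scale (adjusted p = 0.0134 and 0.0265). With G1-1 overload these genes gave 0.01 and -0.07. Pstpip1, the cytoskeletal adaptor that binds pyrin, rose with Printex90, G1-1 and Bayertitan overload by 0.49, 0.40 and 0.47 (edgeR adjusted p = 0.00279, 0.011 and 0.0188). Its place among the restraints is that of the list, and whether it restrains an inflammasome was not tested. All 3 genes also rose in the mean non-overload effect, by 0.22, 0.33 and 0.22 for Il18bp, Serpinb1a and Pstpip1 (adjusted p = 0.0482, 0.00474 and 0.0146). The Il18bp call passed in 11 of 36 fits with 1 library left out. The mean log2 level of the epithelial list was different from control by -0.82 with Printex90 overload and by -0.90 with Bayertitan overload. With it as a covariate the Printex90 calls of Il18bp and Serpinb1a were lost (adjusted p = 0.288 and 0.258), as were the Bayertitan calls of Il18bp, Serpinb1a and Pstpip1 (adjusted p = 0.594, 0.656 and 0.487) and the non-overload calls of Il18bp and Pstpip1 (adjusted p = 0.245 and 0.0895).

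Of the genes around caspase-8 and RIPK1, Birc2, which encodes the ubiquitin ligase cIAP1, rose from 209 ± 19.0 to 305 ± 37.8 CPM with Printex90 overload (log2 fold change 0.54, edgeR adjusted p = 0.00132) and from 186 ± 22.9 to 252 ± 31.6 CPM with Bayertitan overload (0.44, adjusted p = 0.022). Birc3, its paralogue cIAP2, fell with Printex90 overload from 16.1 ± 1.21 to 12.1 ± 1.23 CPM (adjusted p = 0.0377), a call lost in 6 of 12 other settings and without control 1, control 2 or overload 2 (adjusted p = 0.204, 0.0595 and 0.277). It rose with G1-1 overload from 11.9 ± 1.23 to 18.5 ± 1.91 CPM (adjusted p = 0.00213). The overload effects on it differed between particles (adjusted p = 0.00565). Cyld, a deubiquitinase of RIPK1, fell by 0.16 in the mean overload effect (adjusted p = 0.00121). With the epithelial covariate the Bayertitan call of Birc2 (adjusted p = 0.559), the Printex90 call of Birc3 (adjusted p = 0.182) and the mean calls of Cyld (adjusted p = 0.165), Il18bp and Serpinb1a were lost.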

How the data were processed

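Total RNA of 36 libraries, prepared with a ribosomal RNA depletion kit from 150 ng per the labels' protocols, was sequenced. The authors deposited one table of estimated counts per gene, made with Salmon on Rnor_6.0 per the submitters' processing notes. Versions, the annotation and the step from transcripts to genes are not given in the sources used here. Of the values 47.7% are not whole, and counts were rounded. Column names identified the sample of all 36 columns, and there were 0 further columns of sample values. A chi-square per gene between 2 libraries of a group gave 6.87 to 53 over the 36 such pairs, so no library was counted as a duplicate.

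Genes were filtered with filterByExpr and scaled by TMM (factors 0.934 to 1.07). One edgeR quasi-likelihood model with a mean per group and 24 residual degrees of freedom was fitted (R 4.3.3, edgeR 4.0.16, limma 3.58.1). Adjustment of p-values (Benjamini-Hochberg) covered every tested gene. For marker levels and the Col3a1 limit, CPM were taken on column totals without TMM. The 10 members and the lists were chosen with earlier results of these data known. All members were named; of the pathway list at most 12 genes past a test were named, smallest adjusted p first (1 of them is not reported here), and for each member that passed, the 2 genes of highest r. Alternatives were other scalings, DESeq2 1.42.0, limma voom, no filter, replicate blocks, marker covariates and left-out libraries. In simulated counts for Printex90 overload with 14498 genes, the changed genes were drawn from those with a mean count over 100. Of these, 86% of 100 genes changed by a log2 of 1 and 67% of 100 changed by 0.5 were recovered, with 9 false calls. No other difference between groups or in cell content was simulated, and the shares do not cover genes with lower counts. Pathway genes and markers without an entry (Nlrp1b, Naip5, Naip6, Trim30, Chmp4b, Tnfrsf10b, Ticam1, Col1a2, Ccr2 and Pecam1) were not analysed here. The counts were made on Rnor_6.0, so no position of GRCr8 was used with them.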

Additional observations from a re-analysis of the deposited data

Results flagged for a closer look

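The effect of overload on Pycard differed between the 4 particles in the test of the difference itself (F test in edgeR, adjusted p = 0.00853). The log2 fold changes were -0.54 with Printex90, -0.56 with G1-1, -0.00 with G3-1 and 0.27 with Bayertitan. Each was taken against the particle's own 3 controls, which themselves differed in Pycard (F test in edgeR, adjusted p = 0.0262). The test of the difference called 1.72% of all tested genes. Pycard did not pass it without the 15 libraries with Col3a1 above 5 CPM, a fit with 1 library in 4 of the 12 groups.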

How the results depend on the processing

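In every setting tried for them, the 4 single-particle calls and the 3 calls in the mean kept their direction, as did the named pathway calls. The size of some pathway effects did not hold. With Bayertitan overload Ctsb went from 0.33 to as low as 0.006, and Il18bp from 0.549 to as low as 0.074. Il18bp with Printex90 went from 0.488 to as low as 0.096, whereas Txnip with G1-1 stayed at -1.285 or lower. The count of members called in overload against control was 4; it was 5 with DESeq2, with the fibroblast covariate, with the replicate block within particle, and without fibroblast-signal libraries with the epithelial covariate, 2 in fits of one particle alone, 0 without fibroblast-signal libraries (the 15 with Col3a1 above 5 CPM), and 3 to 7 with 1 library left out. For overload against non-overload the count of 2 became 4 with DESeq2 and with the block within particle, 3 with the epithelial and with the fibroblast covariate, 1 with one particle alone, 0 without fibroblast-signal libraries, 1 when the epithelial covariate was added there, and 0 to 3 with 1 library left out, 0 without G1-1 non-overload 3, overload 1 or overload 3 and 1 without G1-1 non-overload 1. For the mean overload effect the count of 3 became 2 with the epithelial covariate, 0 without fibroblast-signal libraries, 1 with the covariate added there, and 3 to 5 with 1 library left out. For effects that differ between particles the count of 1 became 2 with the block within particle, 3 with the fibroblast covariate, 0 without fibroblast-signal libraries with or without the epithelial covariate, and 1 to 2 with 1 library left out. For the control groups the count of 2 became 1 with DESeq2 size factors, upper quartile scaling or no filter, 0 with the epithelial covariate and without fibroblast-signal libraries with or without it, and 0 to 2 with 1 library left out, 0 without Printex90 control 1, G1-1 control 3, or Bayertitan control 1 or 3. Counts for non-overload were 0 in every setting. Of the pathway genes, 29 calls in overload against control became 10 with one particle alone, 16 with the epithelial covariate, 1 without fibroblast-signal libraries, 12 with the covariate added there, and 19 to 35 with 1 library left out. In the mean overload effect 19 became 7, 10 and 5 with the epithelial covariate, without those libraries and with both, and 16 to 22 with 1 library left out. In the mean non-overload effect 4 became 2, 0 and 0 in the same settings and 3 to 6 with 1 library left out. For effects that differ between particles 4 became 1 without those libraries, 2 with both, and 3 to 6 with 1 library left out. Fits without fibroblast-signal libraries have fewer samples, with 1 library in 4 of 12 groups. The share of all genes called in each of these settings is not given here. These counts therefore do not tell whether the members or pathway genes moved apart from all genes. The cause of the changes in any setting was not tested. The 7 calls without Printex90 overload 1 add Casp1 and Casp8 for Printex90 and Casp1 for Bayertitan, and Casp1 and Casp8 then passed in the mean too; Casp4 passed in the mean without Printex90 control 1 (adjusted p = 0.044) and Casp8 without G1-1 control 1 (adjusted p = 0.0269). The replicate number as a block left the member counts at 4, 0, 2, 3, 0, 1 and 2 and put the pathway counts at 29, 18, 4 and 3. Same-numbered libraries had deviations from their group means correlated from -0.666 to 0.429, over 0.1 in 15 of 36 pairs. Deviations within groups of 3 libraries cannot decide whether the numbers pair the samples, and the labels do not say. F tests were not run in DESeq2, effects over several particles cannot be had from 1 particle, and controls cannot be compared within the particle block.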
